A study of Homo sapiens with 2 samples.

Results

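The 10 marker genes examined here, of liver progenitor cells, bile duct cells and hepatoma cells, were measured in HepG2, a human hepatocellular carcinoma cell line: AFP, GPC3, EPCAM, PROM1, CD24, SOX9, KRT7, KRT8, KRT18 and KRT19. They were taken from a list of gene names, not by a threshold on their values, but with earlier results of these data known. They were matched by Ensembl identifier to 10 of the 60623 gene entries in the count tables. The cells of both groups were wild type per the labels and were loaded for 24 h with 1 mM free fatty acids (FFA), oleic and palmitic acid bound to albumin, to induce steatosis. The FFA group was given no retinoid, and the FFA + 9-cis-RA group also received 10 μM 9-cis-retinoic acid for 24 h. This retinoid activates the RXR and RAR nuclear receptors. Each group had 1 library, both of them from the same stated batch and from a single cell line.

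These genes mark stages of liver cell identity. Hepatoblasts, the fetal precursors of hepatocytes and bile duct cells, make alpha-fetoprotein, EPCAM and keratin 19. Hepatocytes keep keratins 8 and 18, while bile duct cells add keratins 7 and 19 and the transcription factor SOX9. AFP and GPC3 are oncofetal genes, silenced after birth and often active again in liver tumors, and EPCAM, PROM1 and CD24 are surface markers used to sort progenitor-like tumor cells. Retinoids are known to promote differentiation in many cell types, so the question addressed here was how these markers stood in the retinoid library.

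The FFA library held 60821539 counts and the retinoid library 57669670. Values are given as counts, as CPM (counts scaled to the library total), or as TPM, which also divides by the exonic length in the count tables. The log2 fold change is FFA + 9-cis-RA against FFA, on counts divided by size factors, with a pseudocount of 1. With 1 library per group there was no replicate check and no test. The exact intervals in parentheses are 95% Clopper-Pearson intervals and cover counting error only, so an interval that excludes 0 separates the libraries and not the conditions. The retinoid label was checked with CYP26A1, RARB and DHRS3. CYP26A1, which encodes a retinoic acid hydroxylase, had 4 counts without and 709 with 9-cis-RA, and the log2 fold changes of RARB and DHRS3 were 2.77 and 0.86. As to the hepatocyte label, SERPINA1 had 294592 and 296345 counts and APOA1 had 109241 and 110072, but TTR, abundant in hepatocytes, had 341 and 278. Of 14 blood and stromal cell markers, PTPRC was at 0 in both libraries, COL1A1 and LUM had at most 2 counts in either, and LYZ carried 5883 of the 6616 counts of the list in the FFA library. The list summed to 109 CPM without and 68.9 CPM with 9-cis-RA, and its part in the results below was not tested.

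For 9 of the 10 markers the counts sufficed for a comparison (at least 10 over both libraries), and all 9 had a log2 fold change below 0, although that of KRT8 was above 0 under other scalings (given with KRT8). The range ran from -1.66 for CD24 to -0.011 for KRT8. The median over the 9 was -0.44, against -0.020 over all 20431 genes compared. The interval lay wholly below 0 for 7 of the 9, against 25.7% of all genes compared, and wholly above 0 for none, against 22.5%. High counts narrow the interval, so genes whose counts sum to at least 1000 are a closer background: 7 of the 8 markers in that range had an interval wholly below 0, against 34.7% of 10298 genes. Only CD24 passed a log2 fold change of -1, which 4.9% of all genes did and 0.66% of the genes with at least 1000 counts. None passed 1, which 3.37% of all genes did. The markers were chosen with earlier results of these data known, so these shares describe the list and test nothing. In a population of cells, fewer cells with a transcript and less transcript per cell cannot be told apart.

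**Figure D1:**
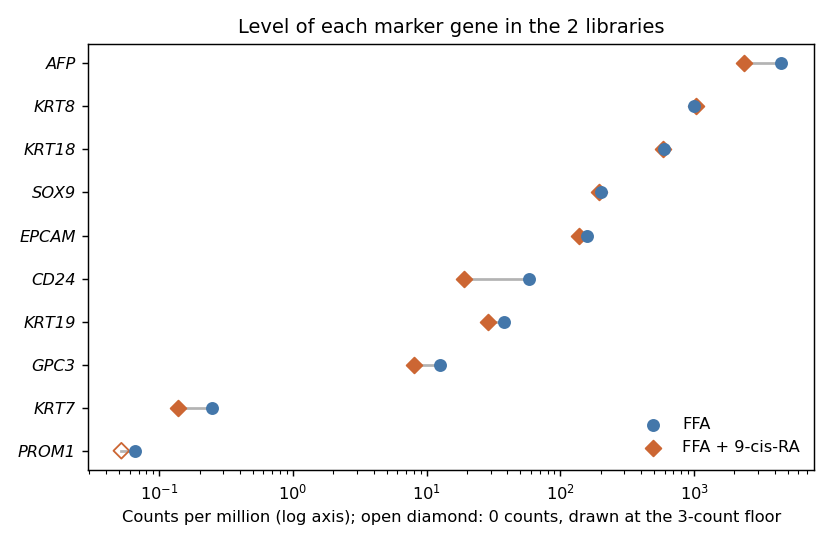
Level of the 10 markers in CPM, counts scaled to the library total (log axis), in the FFA library (circles) and the FFA + 9-cis-RA library (diamonds, open where 0 counts are drawn at the floor of 3 counts). AFP, at 4493 and 2339 CPM, stood above every other marker, and the widest gap among markers with at least 100 counts was that of CD24, at 58.1 and 18.99 CPM.

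The levels differed widely among the markers. Per length, AFP was highest in the FFA library at 4067 TPM, rank 20 of the 60623 entries. KRT18 followed at 565 TPM and KRT8 at 422 TPM, then EPCAM at 181 TPM and SOX9 at 147 TPM. CD24 at 54.4 TPM and KRT19 at 46.9 TPM were next, GPC3 was at 11.5 TPM, and KRT7 and PROM1 were at 0.18 and 0.026 TPM. In the FFA + 9-cis-RA library CD24 and KRT19 changed places, with KRT19 at 36.8 TPM and CD24 at 18.3 TPM, while the other markers kept their order. The levels of KRT7 and PROM1 rest on few counts, 15 and 4 in the FFA library. Without the division by length, KRT8 stood above KRT18 and SOX9 above EPCAM in the FFA library.

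The sequences before the start sites of AFP, its neighbor ALB and CD24 are shown because AFP and CD24 differed most between the libraries among the markers with at least 1000 counts and ALB lies next to AFP. Each is the stretch of 250 bases before a RefSeq start site (GRCh38.p14), 5′ to 3′ on the strand of the gene, and 4 of the 10 markers had an entry. The AFP and ALB start sites lie inside the gene spans of the count tables, which begin further upstream. CD24 had 3 start sites in the table, and the outermost is shown. AFP is from chr4:73435971-73436220 on the plus strand, ALB from chr4:73404037-73404286 on the plus strand, and CD24 from chr6:106975628-106975877 on the minus strand. Capitals mark the core promoter element TATAAA, and the Sp1-type element GGGCGG known as the GC box.
AFP: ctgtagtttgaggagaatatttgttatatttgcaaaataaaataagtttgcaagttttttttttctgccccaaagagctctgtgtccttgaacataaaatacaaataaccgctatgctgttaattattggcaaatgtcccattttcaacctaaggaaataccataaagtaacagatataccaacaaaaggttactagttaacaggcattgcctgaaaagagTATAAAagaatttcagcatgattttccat
ALB: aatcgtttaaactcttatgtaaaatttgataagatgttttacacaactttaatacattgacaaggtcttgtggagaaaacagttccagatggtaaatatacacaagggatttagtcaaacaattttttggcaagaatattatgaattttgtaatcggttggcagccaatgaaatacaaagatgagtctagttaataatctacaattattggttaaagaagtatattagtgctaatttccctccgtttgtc
CD24: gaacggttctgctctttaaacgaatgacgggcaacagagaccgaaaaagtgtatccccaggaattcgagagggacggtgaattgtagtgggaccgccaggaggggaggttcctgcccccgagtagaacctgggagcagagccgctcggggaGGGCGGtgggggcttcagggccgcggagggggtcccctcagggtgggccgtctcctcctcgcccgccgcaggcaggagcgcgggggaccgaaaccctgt

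The upstream sequences of AFP and ALB had GC contents of 31.6% and 30.0%, and that of CD24 had 65.6%. AFP held TATAAA beginning 29 bases before the start, and the CD24 stretch shown held a GC box beginning 99 bases before its start. ALB held neither. Of the other CD24 start sites, 1 had a GC box beginning 71 bases before it and 1 had none. On both strands, 10.7% of all 35116 stretches of this length in the table held TATAAA and 42.6% held GGGCGG. The hexamers AGGTCA and AGTTCA, to which nuclear receptors such as RAR and RXR bind in pairs, were in none of the 3 sequences, and 19.7% of all stretches held at least 1 of them. A match describes the letters and not a bound site, and the absence of a match refers to these 250 bases alone.

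AFP (ENSG00000081051) encodes alpha-fetoprotein, the main serum protein of the fetus and a serum marker of hepatocellular carcinoma. The gene lies on chromosome 4 from 73431138 to 73456174 on the plus strand (GRCh38) in 18 merged exons. It had 273242 counts without and 134862 with 9-cis-RA. These were 0.449% of all counts in the first and 0.234% in the second, and AFP ranked 20 and 29 by TPM. The log2 fold change was -0.99, a ratio of 0.503, and the interval ran from just past -1 to -0.98. AFP thus stood at the threshold of -1 without passing it, and 70 of the 10298 genes with at least 1000 counts, AFP included, had a log2 fold change as low or lower.

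The albumin family lies around AFP on the same chromosome. ALB, from 73397114 to 73421482 upstream of AFP, had 186609 and 112866 counts and a log2 fold change of -0.70 (exact interval -0.71 to -0.69). AFP had 1.46 counts for each count of ALB in the FFA library (exact interval 1.46 to 1.47) and 1.19 in the FFA + 9-cis-RA library (exact interval 1.19 to 1.20), so that the fetal gene was lower relative to the adult one. AFM, which encodes afamin and lies from 73481745 to 73504001 downstream of AFP, had 33 and 10 counts and a log2 fold change of -1.60. GC, the vitamin D binding protein gene, had 0 counts in both libraries.

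The transcription factors known to act on AFP differed less than AFP itself. Of a list of 12, none passed 1 or -1, and the interval lay below 0 for 7 and above 0 for 2. The lowest were the forkhead factor gene FOXA3, which had 1777 and 1003 counts and a log2 fold change of -0.80, NR2F1 at -0.72 and FOXA1 at -0.51. The highest were CEBPB at 0.24 and ZHX3 at 0.20. ZBTB20, a repressor of AFP after birth, had 126 and 105 counts, and its interval included 0. ZHX2, another repressor of AFP, had 1733 and 1638 counts, and its interval also included 0. The median of the 12 was -0.21.

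GPC3 (ENSG00000147257) encodes glypican 3, a heparan sulfate proteoglycan of the cell surface that is used as a tissue marker of hepatocellular carcinoma. The gene lies on chromosome X from 133535745 to 133985895 on the minus strand, a span of 450151 bases, with 13 merged exons. It had 765 counts without and 465 with 9-cis-RA, and its log2 fold change was -0.69 (exact interval -0.86 to -0.52). HepG2 cells are commonly used as GPC3-positive cells, yet at 11.5 TPM in the FFA library the gene ranked 8167 among all entries. The counting step kept read pairs of limited fragment length, and its part in the low counts of GPC3 and TTR was not tested. Levels of different genes are therefore compared with this limit.

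Among the other glypicans, GPC4 and GPC1 had more counts than GPC3. GPC4 had 6066 and 4190 counts and a log2 fold change of -0.51 (exact interval -0.56 to -0.45). GPC1 had 7755 and 6737 counts and a log2 fold change of -0.18. Of the 5 glypicans compared, GPC3 included, the interval lay below 0 for 3 and above 0 for 1. That one was GPC6, with 21 and 72 counts and a log2 fold change of 1.76 (chosen after its values were seen).

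Of 20 further oncofetal and hepatoma markers, 16 could be compared, and their median log2 fold change was -0.23. The interval lay below 0 for 12 and above 0 for 3, and with scaling to total counts for 10 and 3. PEG10, an imprinted gene of retroviral origin, had 88782 and 42363 counts and a log2 fold change of -1.04. With scaling to total counts no gene of this list passed -1. AKR1B10, an aldo-keto reductase gene, had 48789 and 26663 counts and a log2 fold change of -0.84. LIN28B, which encodes a fetal RNA-binding protein that blocks let-7 maturation, had 5456 and 3260 counts and a log2 fold change of -0.72. On the other side, with intervals above 0, were SPINK1 at 0.79, GOLM1 at 0.33 and IGF2 at 0.31. The oncofetal IGF2BP1 and IGF2BP3, which encode RNA-binding proteins, were at -0.058 and -0.21 (both named after their values were seen).

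**Figure D2:**
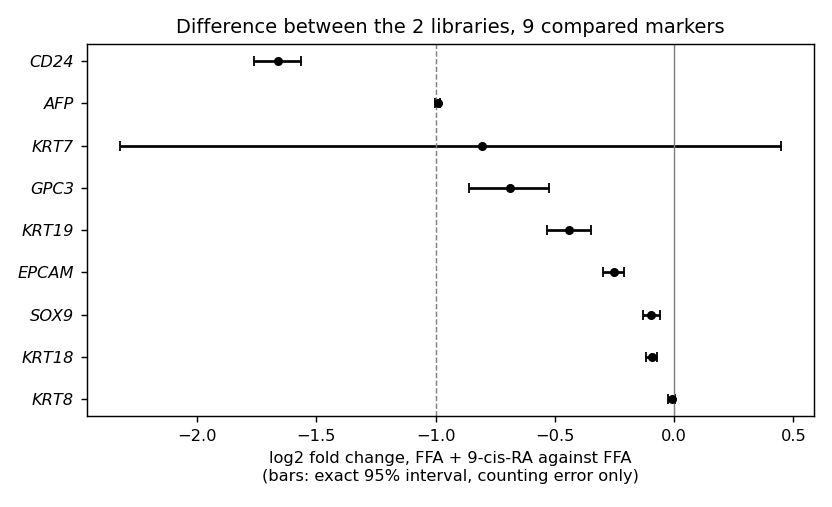
Log2 fold change of FFA + 9-cis-RA against FFA for the 9 markers compared (points), with exact 95% intervals for counting error (bars) and the threshold of -1 (dashed line). CD24 at -1.66 lay past the threshold, AFP at -0.99 lay beside it, and the interval of KRT7, from -2.32 to 0.45, was the widest.

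CD24 (ENSG00000272398) encodes a small, heavily glycosylated surface protein that is anchored to the membrane by a lipid and is carried by progenitor cells and many tumors. The gene lies on chromosome 6 from 106969831 to 106975627 on the minus strand. It had 3536 counts without and 1095 with 9-cis-RA, levels of 58.1 and 18.99 CPM. The log2 fold change was -1.66 (exact interval -1.76 to -1.57), a ratio of 0.316. CD24 alone among the markers had its whole interval below -1, which 0.93% of all genes compared did. Among the 10298 genes with at least 1000 counts, 7 had a log2 fold change as low or lower, CD24 included. The 3 CD24 pseudogenes that were looked at had 0 counts in both libraries. Any on chromosome Y or on another excluded chromosome were left out. Reads that fit several places equally were not counted, and their part in the CD24 counts was not tested.

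EPCAM (ENSG00000119888), on chromosome 2 from 47345158 to 47387601, encodes an epithelial adhesion protein of hepatoblasts and bile duct cells. It had 9584 and 7891 counts and a log2 fold change of -0.25 (exact interval -0.30 to -0.21). The difference was much smaller than that of CD24: for each count of EPCAM there were 0.369 counts of CD24 in the FFA library (exact interval 0.355 to 0.383) and 0.139 in the FFA + 9-cis-RA library (exact interval 0.130 to 0.148). PROM1 (ENSG00000007062), on chromosome 4 from 15963076 to 16084378, encodes prominin 1, also known as CD133, a protein of membrane protrusions. Only 4 counts fell on it without 9-cis-RA and 0 with it, and that 0 allows a level of up to 3 counts, or 0.0520 CPM. A difference in PROM1 was not detectable at this depth.

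Of a list of 15 further progenitor and stem cell markers, 10 could be compared, with a median log2 fold change of -0.084. The interval lay below 0 for 4 and above 0 for 3, where 25.7% and 22.5% of all genes compared did. LGR5, which encodes a receptor that amplifies Wnt signals, had 4648 and 5455 counts and a log2 fold change of 0.26. CD47 was at 0.25 and ICAM1 at 0.14. ALCAM, an adhesion gene, had 2493 and 2120 counts and a log2 fold change of -0.21, and ANPEP was at -0.099. The lowest with at least 100 normalized counts in a library was FOXJ1 at -0.33, which encodes a transcription factor of ciliated cells and not a surface protein. Only CD9, with 86 and 30 counts and a log2 fold change of -1.46, passed -1 (named after its values were seen).

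SOX9 (ENSG00000125398) encodes the transcription factor that marks bile duct cells and liver progenitors. The gene lies on chromosome 17 from 72121020 to 72126416 on the plus strand. It had 12132 counts without and 11146 with 9-cis-RA, and its log2 fold change was -0.095 (exact interval -0.13 to -0.057). The value lay inside the central range of the data, whose quartiles were -0.26 and 0.18. Another member of the family, SOX5, had 1535 and 476 counts and a log2 fold change of -1.66, while SOX18 was at -0.40, SOX6 at -0.32, SOX12 at -0.26 and SOX13 at 0.043. Of the 7 other SOX genes compared, the interval lay below 0 for 4 and above 0 for none.

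KRT19 and KRT7 are the keratins of bile duct cells. KRT19 (ENSG00000171345), a type I keratin on chromosome 17 from 41523617 to 41528308, had 2301 counts without and 1663 with 9-cis-RA, and its log2 fold change was -0.44 (exact interval -0.53 to -0.35). KRT7 (ENSG00000135480), a type II keratin on chromosome 12 from 52232520 to 52252186, had 15 counts without and 8 with 9-cis-RA, too few to separate the libraries (exact interval -2.32 to 0.45). Bile duct cells would carry both keratins, and in these libraries KRT19 was present without a comparable level of KRT7. For each count of KRT18 there were 0.0633 counts of KRT19 in the FFA library (exact interval 0.0606 to 0.0660) and 0.0497 in the FFA + 9-cis-RA library (exact interval 0.0473 to 0.0523).

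Of 22 further biliary markers, 18 could be compared. Their median log2 fold change was -0.089, with intervals below 0 for 6 and above 0 for 5. The lowest were MMP7, a matrix protease gene with 182 and 80 counts and a log2 fold change of -1.15, SPP1 at -0.91 and the Notch ligand gene JAG1 at -0.47. SPP1, which encodes osteopontin, had 158202 and 82857 counts. The highest at that minimum of 100 normalized counts were ELF3, an epithelial transcription factor gene with 346 and 549 counts and a log2 fold change of 0.69, GGT1 at 0.44 and the receptor gene NOTCH2 at 0.42. JAG1 and NOTCH2 thus differed in opposite directions between the libraries, and they do not stand for other Notch ligand or receptor genes.

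KRT8 (ENSG00000170421) and KRT18 (ENSG00000111057) encode the keratin pair of simple epithelia, which assemble together into the filaments of the hepatocyte. They lie beside each other on chromosome 12 in opposite orientation, KRT8 from 52897187 to 52949954 and KRT18 from 52948871 to 52952906. Their annotated exons overlap on opposite strands over 7.63% of KRT8 and 17.1% of KRT18, and the counting was strand-specific. KRT8 had 60957 counts without and 59362 with 9-cis-RA, and its log2 fold change was -0.011 with an interval that included 0 (-0.027 to 0.0057). The sign depended on the scaling: it was 0.0093 with TMM factors and 0.039 with total counts, where the interval lay above 0. With scaling on protein-coding genes it was -0.017 and the interval lay below 0, which made 8 of the 9 markers with such an interval. KRT18 had 36377 and 33430 counts and a log2 fold change of -0.094 (exact interval -0.12 to -0.073), and stayed below 0 under both. There were 1.68 counts of KRT8 for each count of KRT18 in the FFA library (exact interval 1.65 to 1.70) and 1.78 in the FFA + 9-cis-RA library (exact interval 1.75 to 1.80).

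Both keratin genes have many processed pseudogenes, and reads that fit several places equally were not counted. The 49 pseudogenes of KRT8 that were looked at summed to 728 and 583 counts, 1.19% and 0.982% of the parent gene. The 65 of KRT18 summed to 144 and 120 counts, 0.396% and 0.359% of the parent. Any on chromosome Y or on another excluded chromosome were left out of these sums. The reads lost to multiple mapping were not measured. Of 51 other keratin genes, 31 had 0 counts in both libraries and 9 could be compared. KRT23, a type I keratin gene, had 3257 and 1978 counts and a log2 fold change of -0.69 (exact interval -0.77 to -0.61), more than that of KRT19. KRT10 had 2131 and 2155 counts and KRT80 had 345 and 307, and both intervals included 0. The interval lay below 0 for 4 of the 9 and above 0 for 1, KRT81, which had 4 and 19 counts (named after its values were seen).

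Genes whose products join keratin filaments to desmosomes differed little. None of 11 passed 1 or -1, and the median log2 fold change was -0.087. The lowest were PKP3 at -0.33, DSP, the desmoplakin gene, at -0.21 and DSC2 at -0.20, and the highest were PPL, the periplakin gene, at 0.35, EVPL at 0.19 and JUP at 0.18. The interval lay below 0 for 7 and above 0 for 4, and with total counts for 3 and 4. In a list of epithelial genes, 9 of which were compared, CDH1, which encodes E-cadherin, had 1528 and 2123 counts and a log2 fold change of 0.50, and OCLN was at 0.35. CLDN1 had 5082 and 2764 counts and a log2 fold change of -0.85, and ESRP2, which encodes an epithelial splicing regulator and not a junction protein, was at -0.38. Of 10 mesenchymal markers, 7 were compared, with 4 intervals below 0 and 2 above. Among those with at least 100 normalized counts in a library, SNAI2 was lowest at -1.09, FN1 had 101411 and 68623 counts at -0.54, and ZEB1 was highest at 0.34.

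**Figure D3:**
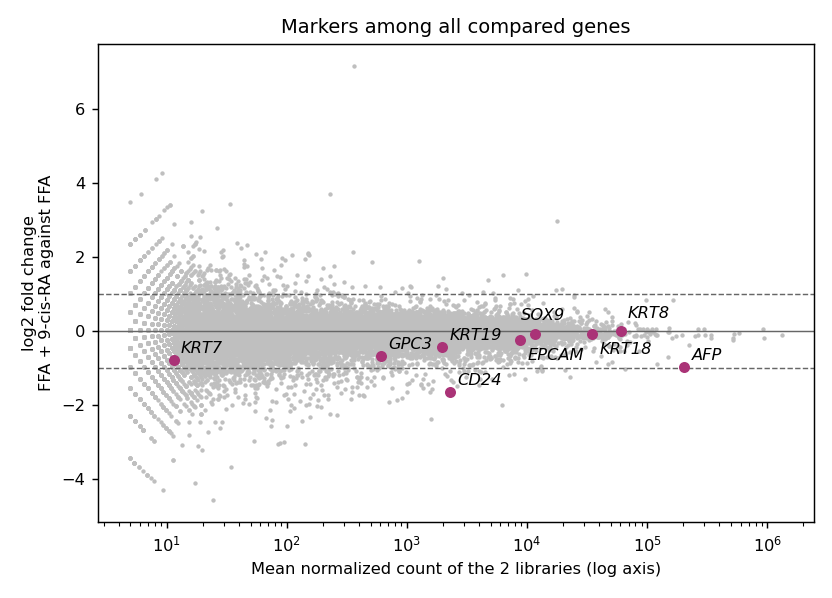
Log2 fold change against the mean normalized count (log axis) for the 20431 genes compared (grey) and the 9 markers among them (purple), with lines at 0 and at thresholds of 1 and -1. AFP at -0.99 and CD24 at -1.66 lay at the lower edge of the genes of like counts, and KRT8 at -0.011 lay in the middle.

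Hepatocyte markers as a group were not higher in the FFA + 9-cis-RA library, in which the 9 markers described here had a median log2 fold change of -0.44. Of 26 hepatocyte differentiation markers, 22 could be compared, and their median log2 fold change was -0.29. The interval lay below 0 for 14 and above 0 for 5. UGT2B7, a glucuronosyltransferase gene, had 5787 and 2589 counts and a log2 fold change of -1.13, and TAT, the tyrosine aminotransferase gene, was at -0.75. PCK1, which encodes a rate-limiting enzyme of gluconeogenesis, had 40 and 138 counts and a log2 fold change of 1.79, FGB was at 0.84 and CEBPA at 0.083. HNF4A, the central transcription factor gene of hepatocytes, had 24238 and 21509 counts and a log2 fold change of -0.14. ALB belongs to this list as well as to the family of AFP. The 9 markers described here did not have the lowest median among the lists examined. The median was -0.66 for the 9 other keratin genes, -0.54 for the 7 mesenchymal markers and -0.60 for the 9 blood and stromal markers. For the 3 relatives of PROM1 and EPCAM that could be compared it was -0.93. The gene at the median had 94 and 58 counts in the keratin list and 16 and 10 in the blood and stromal list. Among the relatives it had 32 and 16. Those medians rest on few counts, whereas 8 of the 9 markers had at least 1000, so they are not a like comparison. The mesenchymal median fell on FN1, a gene with high counts.

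**Figure D4:**
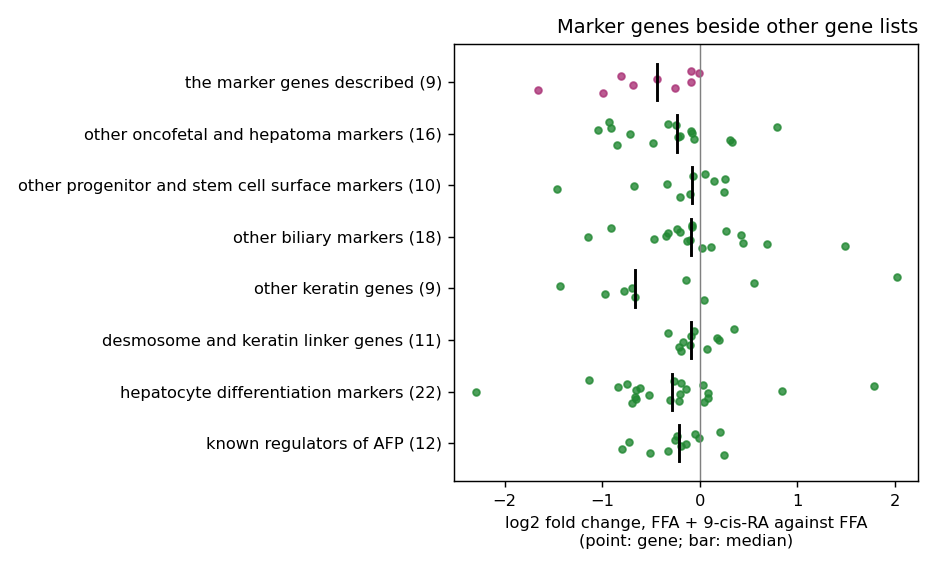
Log2 fold change of the marker genes (purple) and of the genes in 7 other lists (green), with the median of each list (bar) and the number of genes compared in parentheses. The median was -0.44 for the markers and lower, at -0.66, for other keratin genes, where the gene at the median had 94 and 58 counts. It was -0.23 for other oncofetal and hepatoma markers, -0.084 for other progenitor markers, -0.089 for other biliary markers, -0.087 for desmosome and keratin linker genes, -0.29 for hepatocyte differentiation markers and -0.21 for known regulators of AFP.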

How the data were processed

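RNA of FFA-treated HepG2 cells without or with 9-cis-RA was sequenced in poly(A)-selected, stranded libraries, 1 per group. The deposited values are unnormalized counts of read pairs per gene. Per the file headers, featureCounts version 2.0.1 required both ends of a pair to map, counted the reverse strand, checked fragment length and, at its default settings, left out multi-mapping reads and reads overlapping several genes. The build was GRCh38 per the submitters' processing notes. The aligner and the annotation release were not given in the sources used here. The union of exons sets the length used for TPM, so rare exons lower the TPM.

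Gene names were matched for 60295 of 60623 entries, and gene types came from GENCODE release 29. Size factors were from DESeq2 version 1.42.0, and alternative factors from edgeR version 4.0.16, in R version 4.3.3. A gene was compared when its counts in the 2 libraries came to 10 or more, with a threshold of 1 on the log2 scale, the fold named in the methods of the study. With no replicates, no test was run. Intervals, loess trends (span 0.3), sequences and plots used Python 3.11.15 with scipy 1.17.1, statsmodels 0.14.6 and matplotlib 3.10.9. Of these steps, only the fold changes and their intervals were tested on simulated counts. Floors are 3 counts.

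The markers and the other gene lists were chosen with earlier results of these data known. All 10 markers were named, and in other lists at most the 3 highest and the 3 lowest genes among those reaching 100 normalized counts in either library, together with ALB, AFM and GC, other keratins of that level and the retinoid check genes. Genes named for comparison beyond this rule (ZHX2, ZBTB20, HNF4A, FN1, TTR, SERPINA1, APOA1 and cell type markers at 0 or few counts) were chosen after their values were seen. Some members of the other lists are counted in them but not reported here by name.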

Additional observations from a re-analysis of the deposited data

How the results depend on the processing

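Alternatives were TMM and total-count scaling, scaling on protein-coding genes, pseudocounts of 0.1 and 5, other count minimums, and removal of trends on expression and length. No paired analysis was possible because each group had 1 library. Of 63 marker values under an alternative, 49 stayed within the counting interval, and no marker whose interval excluded 0 changed sign. With TMM, AFP was at -0.97 and KRT8 at 0.0093. With total counts, AFP was at -0.94, EPCAM at -0.20, SOX9 at -0.046, KRT8 at 0.039 and KRT18 at -0.045. With the expression trend removed, AFP was at -0.91, KRT8 at 0.038 and KRT18 at -0.060. With the length trend removed, AFP was at -0.97, EPCAM at -0.20, KRT8 at -0.060 and KRT18 at -0.065. The cause of these moves was not tested beyond the rescaling itself.

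Without a count minimum PROM1 entered, the median over the markers was -0.57, and 2 markers were below -1. The number of genes below -1 and above 1 was 1002 and 689. It was 594 and 341 with a pseudocount of 5, 2493 and 3771 without a minimum, 361 and 153 with at least 50 counts, 190 and 79 with the whole interval past the threshold, and 68 and 21 with at least 1000 counts (chosen after seeing the data). Fewer genes are compared under the higher minimums. In the order by level, omission of the length moved 4 markers by 1 place. Depth limited KRT7 and PROM1, and the spread between cultures of one treatment could not be measured for any marker.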
